A study of Mus musculus with 4 samples.

Results

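The 131 genes described here encode the proteasome, the ubiquitin-conjugating enzymes (E2) and the ubiquitin-specific proteases (USP) of the mouse. They were taken by symbol, as all genes whose name begins with Psm and a letter from a to g and a digit, with Ube2, or with Usp and a digit, without Usp18 and Usp9y, and they make up 131 of the 18193 genes that have a probe set of their own on the array. Of them, 49 carry a proteasome symbol, 33 an E2 symbol and 49 a USP symbol. The rule uses symbols alone, and 6 of the genes (Psmc3ip, Psme3ip1, Ube2cbp, Ube2d-ps, Usp6nl and Usp46os2) share only the letters of the name. Each gene was read from its brightest probe set over the 4 arrays.

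Leukemic bone marrow of C57BL/6J mice (2 arrays) was compared with mature myeloid bone marrow cells of the Gr1+/CD11b+ phenotype (also labelled Gr1/Mac1) from healthy C57BL/6J mice (2 arrays). The leukemia was driven by MN1, a transcriptional coregulator found at raised levels in some human acute myeloid leukemias. For it, marrow taken 4 days after fluorouracil at 150 mg/kg was cultured for 48 hours with hIL-6 at 10 ng/mL, mIL-3 at 6 ng/mL and mSCF at 20 ng/mL, and received MN1 by coculture with irradiated GP+ E86 virus producer cells and protamine sulfate. GFP-sorted cells then went into syngeneic recipients irradiated with 750 cGy, together with fresh marrow cells of normal syngeneic mice. The labels attach the same protocol text to the mature samples, and they give no age of the animals. No sort of the leukemic marrow at harvest is given either, so cells of the recipient or of the helper graft may be among it. Normal immature cells are not among the 4 arrays, so that the leukemia cannot be told apart from the stage of maturity, nor can fewer cells of a type and less RNA per cell. The design text calls the arrays of a group biological replicates.

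Ubiquitin is activated by an E1 enzyme, passed to an E2 enzyme and attached to a target protein, usually with the help of an E3 ligase. Chains of ubiquitin can mark a protein for the 26S proteasome, in which a 19S cap binds, unfolds and deubiquitinates the substrate and a barrel-shaped 20S core cuts it into peptides. USP enzymes take ubiquitin off again. In cells of the immune system and under interferon, the catalytic subunits Psmb8, Psmb9 and Psmb10 replace Psmb5, Psmb6 and Psmb7 in the core, and the resulting immunoproteasome is known for its part in making peptides for MHC class I.

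The measured quantity was the MAS5 signal of a probe set, a linear intensity scaled to the same trimmed mean on every array. Fold changes are given as the leukemic mean less the mature mean of log2(signal + 16), a scale that makes the change of dim genes look smaller, and a gene counts as called at a limma adjusted p under 0.05 over 12378 tested genes. The contrast was broad, since 43.4% of all tested genes were called, with 27.5% higher in leukemic marrow and 15.9% lower, and the median log2 fold change of all genes was 0.28. The 3′ to 5′ signal ratio of the actin control probe sets, which grows as RNA or label is shortened, was 3.28 and 3.09 on the leukemic arrays against 1.32 and 1.39 on the mature ones, so it moved with the group for every gene below and its part in the results was not tested. Stem and progenitor markers were higher in leukemic marrow (8 of 9 tested called, 0 lower, summed signals 50722 and 54645 against 3574 and 5342) and monocyte and macrophage markers lower (7 of 9, 1 higher, 11714 and 8976 against 73044 and 48393). Of the neutrophil markers, 5 of 11 were called lower and 0 higher, and their summed signals overlapped (455938 and 262495 against 458439 and 361742). Erythroid and mast cell markers rose in leukemic marrow (6 of 8 and 5 of 6), and the part of these cell types in the results was not tested.

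Of the 131 genes, 120 passed the filter on dim probe sets, and 42 of these (35%) were called, 36 higher and 6 lower in leukemic marrow, against 43.4% of all tested genes. Both leukemic arrays stood above both mature arrays in 63 of the 120 and below them in 22, while 74.2% of all tested genes had no overlap in one direction or the other. The share of calls over the whole list was thus below that of the array. Without the genes that share only letters, 33 of 115 tested genes rose (28.7%) and 6 fell (5.2%). The family counts that follow include them, with Psmc3ip, Ube2cbp and Usp6nl among the rises. Of the rises, Psma8, Ube2cbp and Ube2ql1 passed the filter on dim probe sets through the leukemic arrays alone. Among 48 tested proteasome genes, 21 rose, which is 43.75% against 27.5% of all genes, and 0 fell against 15.9%. Their median log2 fold change was 0.63, and 34 of them lay above the median of all genes. Of 30 tested E2 genes 6 rose and 3 fell, with a median of -0.03. Of 42 tested USP genes 9 rose (21.4%, against 27.5% of all genes) and 3 fell (7.1%, against 15.9%), with a median of 0.26.

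The height of the proteasome median depended on how the arrays were scaled, and its place above the median of all genes did so less. With every array brought to the same median signal, the proteasome median was 0.31 and that of all genes -0.03, and Psma5, Psmc3ip, Psmd7, Psmg1 and Psmg2 alone were still called among the proteasome genes. The higher calls of Ube2e1, Ube2e3, Ube2q2, Usp20, Usp40 and Usp48 were lost there as well. The hybridization controls are added before scanning, and in another setting each group was multiplied by 1 factor that made their group means equal. The proteasome median was then -0.70 and that of all genes -1.02, and 23 proteasome genes were called lower and 2, Psmd7 and Psmg2, higher. Over all 15 alternative settings the proteasome median lay 0.11 to 0.63 above that of all genes, the distance of the E2 median from it ran from -0.41 to -0.17, and that of the USP median from -0.15 to 0.10. Every direction below is therefore relative to the deposited scaling. The number of calls was also smaller without either leukemic array, as 9 proteasome genes were called without leukemic replicate 1 and 4 (Psma5, Psmd7, Psmg1 and Psmg2) without leukemic replicate 2.

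**Figure D1:**
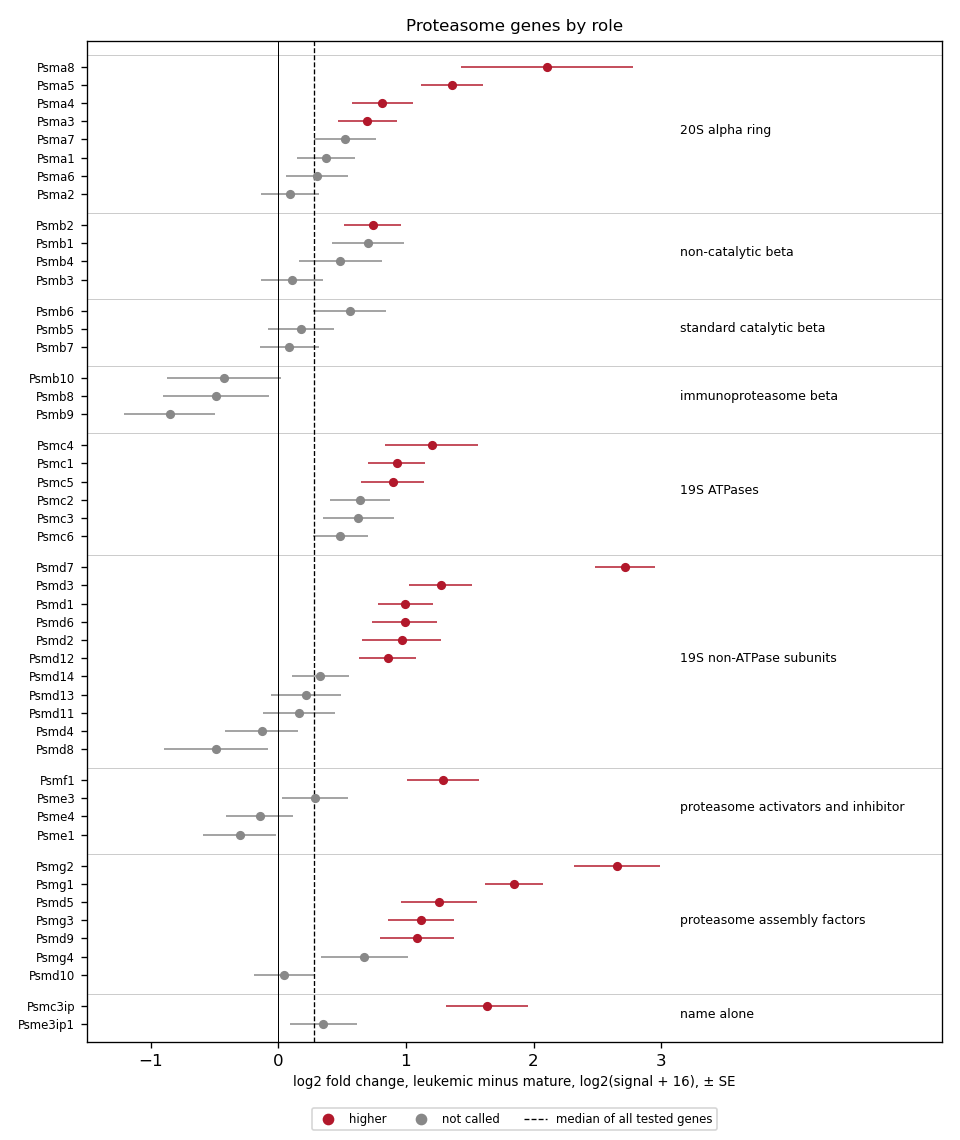
Log2 fold change, leukemic minus mature, of each tested proteasome gene (1 row per gene, grouped by role), with its SE as a horizontal bar and the call by colour. The assembly factors and the 19S cap hold most of the called genes, the assembly factors with a median of 1.12, while the standard catalytic subunits lie near the all-gene median of 0.28 and the immunoproteasome subunits below 0.

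The 20S core is built of outer alpha rings, which gate the entry, and inner beta rings, which carry the cutting sites. Of the 8 alpha genes 4 rose (50%, against 27.5% of all genes) and 0 fell (against 15.9%), with a median log2 fold change of 0.61. In all 8 both leukemic arrays stood above both mature arrays, as in 45.9% of all tested genes. Psma5, the alpha 5 subunit, gave signals of 13444 and 17062 on the leukemic arrays against 6174 and 5611 on the mature ones. The leukemic arrays stood well above the mature arrays, and the log2 fold change was 1.36 (SE 0.24, adjusted p = 0.0048). Psma4, another subunit of the ring, gave 5556 and 5589 on the leukemic arrays against 3640.1 and 2742 on the mature ones, without overlap and with a smaller change of 0.82 (SE 0.24, adjusted p = 0.031). Psma3 was close to it at 0.70 (SE 0.23, adjusted p = 0.046). Psma8, the alternative alpha 4 subunit known from the testis, was dim at 47.3 and 138 on the leukemic arrays against 5.51 and 8.45 on the mature ones. Both mature arrays lay under the filter for dim signals, so Psma8 passed it through the leukemic arrays alone and adds no support to the counts above. The leukemic arrays differed widely from each other, and the fitted change was 2.10 (SE 0.68, adjusted p = 0.042). Its size was set by the pseudocount, at 3.38 with 1, where it was not called (adjusted p = 0.052), and 1.08 with 64. Psma1, Psma2, Psma6 and Psma7 did not pass, with log2 fold changes of 0.09 to 0.52. Of these 4 calls only that of Psma5 was kept with any 1 array left out. With leukemic replicate 2 left out, the adjusted p came to 0.046 for Psma5, 0.16 for Psma4, 0.2 for Psma3 and 0.28 for Psma8.

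In the beta ring the structural subunits Psmb1, Psmb2, Psmb3 and Psmb4 had a median log2 fold change of 0.59. Psmb2 alone was called at its brightest probe set. Its signals were 2736 and 3161 on the leukemic arrays against 1724 and 1785 on the mature ones, so the groups did not overlap, and it rose by 0.74 (SE 0.22, adjusted p = 0.033). That call was lost without leukemic replicate 2 (adjusted p = 0.25). The other 3 gave 0.11 to 0.70, but a dimmer probe set of Psmb4 was called higher at 1.43 (adjusted p = 0.034), and Psmb4 was called at 0.96 when its probe sets were averaged.

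None of the catalytic subunits, standard or immune, passed the test in either direction. Psmb5, which carries the chymotrypsin-like activity, gave 7118 and 6528 on the leukemic arrays against 7155 and 5059 on the mature ones, a change of 0.18 (SE 0.26, adjusted p = 0.61). Psmb6, which carries the caspase-like activity, gave 5197 and 5454 on the leukemic arrays against 4593 and 2826 on the mature ones, a change of 0.56 (SE 0.29, adjusted p = 0.16). Psmb7, which carries the trypsin-like activity, gave 5142 and 6199 on the leukemic arrays against 5305 and 5319 on the mature ones, a change of 0.09 (SE 0.23, adjusted p = 0.79). In Psmb5 and Psmb7 the groups overlapped, and in Psmb6 both leukemic arrays lay above both mature arrays. The signs of Psmb5 and Psmb7 turned with every array at the same median (-0.14 and -0.23), so no direction is given.

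The immunoproteasome subunits showed a mature array that stood apart from its partner. Psmb8, which takes the place of Psmb5, gave 2591 and 2402 on the leukemic arrays against 5543 and 2218 on the mature ones, a change of -0.49 (SE 0.41, adjusted p = 0.38). Psmb9, which takes the place of Psmb6, gave 3033 and 2474 on the leukemic arrays against 7079 and 3469.9 on the mature ones, a change of -0.85 (SE 0.36, adjusted p = 0.096). Psmb10, which takes the place of Psmb7, gave 2000.1 and 1405 on the leukemic arrays against 3622 and 1402 on the mature ones, a change of -0.42 (SE 0.45, adjusted p = 0.48). In all 3 mature replicate 1 was the highest of the 4 arrays, and mature replicate 2 lay just below both leukemic arrays for Psmb8 and Psmb10 and above both for Psmb9. Without mature replicate 1, Psmb8 and Psmb10 turned to 0.17 and 0.26, and without mature replicate 2 Psmb8, Psmb9 and Psmb10 were called lower in leukemic marrow at -1.15, -1.36 and -1.10. Psmb8 also differed between its probe sets, the dimmer one giving 0.68. Psmb11, the thymus form of the subunit, was too dim to test, at 19.2 and 44.6 on the leukemic arrays against 1.73 and 9.66 on the mature ones.

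Taking the difference of each immune subunit from the standard subunit it replaces removes the scaling of the array. The log2 signal of Psmb9 minus that of Psmb6 was -0.77 and -1.14 on the leukemic arrays against 0.62 and 0.29 on the mature ones. The groups did not overlap, and the leukemic minus mature difference was -1.41, with an exact two-sided permutation p of 0.33, the smallest that 2 arrays against 2 allow. For Psmb8 minus Psmb5 the values were -1.45 and -1.44 against -0.37 and -1.18, again without overlap, with a leukemic minus mature difference of -0.67 (exact p = 0.33). For Psmb10 minus Psmb7 they were -1.36 and -2.13 against -0.55 and -1.91, which overlapped (difference -0.51, exact p = 0.67). The mean difference over the 3 pairs, leukemic minus mature, was -0.86 (pooled SD between replicates 0.46), -0.45 without mature replicate 1 and -1.28 without mature replicate 2. All 3 differences were negative with the 4 arrays together. Without mature replicate 1, that of Psmb10 and Psmb7 turned to 0.17, that of Psmb8 and Psmb5 was -0.26 and that of Psmb9 and Psmb6 was -1.25. Markers of monocytes and the interferon response genes had the same order within the mature group. Their summed signals were 73044 and 48393 and 39002 and 24691 in mature replicates 1 and 2. The order was not particular to them, as most other lists of genes had it, among them the neutrophil (458439 and 361742) and erythroid (9404 and 4798) markers. The stem and progenitor, mast cell and basophil, megakaryocyte, and dendritic cell and MHC class II (7660 and 12405) lists had the reverse order. The part of these cell types and genes in the result was not tested.

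**Figure D2:**
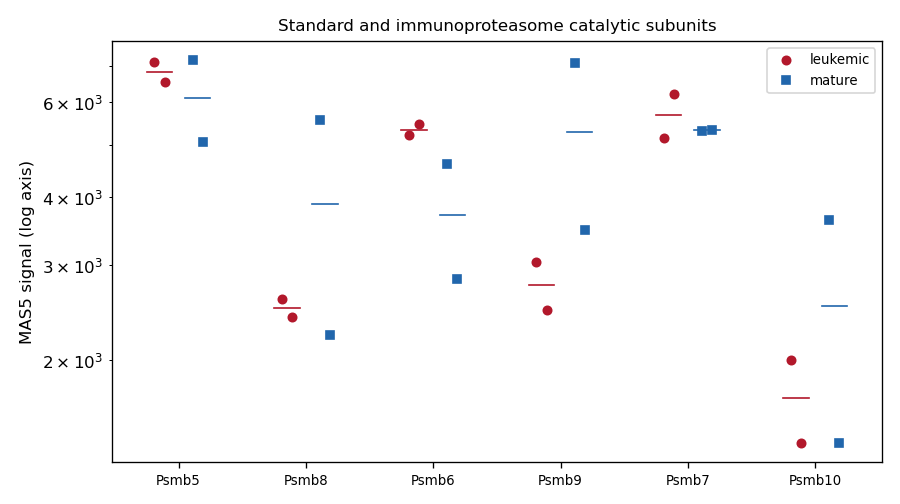
MAS5 signal (log axis) of the standard and the immunoproteasome catalytic subunits in each of the 4 arrays, with a point per array and a short line at each group mean. Mature replicate 1 is the highest point for Psmb8 (5543), Psmb9 (7079) and Psmb10 (3622), and the groups overlap in Psmb5 and Psmb7.

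Promoter sequence is shown for Psmg1, a chaperone of the alpha ring that rose (values below), and for Psmb5 and Psmb9, a standard and an immune catalytic subunit that did not pass, each with 1 start in the table used. The bases come from RefSeq (GRCm38.p6), are the 250 before the transcript start on the minus strand, and run 5′ to 3′. Capitals mark TGANNNNGC, a loose form of the antioxidant response element core, and the ETS core CCGGAAG, both searched on both strands. The antioxidant response element is known as the site of Nfe2l1 and Nfe2l2, and its stricter core is TGACNNNGC.
Psmg1, chr16:95990961-95991210: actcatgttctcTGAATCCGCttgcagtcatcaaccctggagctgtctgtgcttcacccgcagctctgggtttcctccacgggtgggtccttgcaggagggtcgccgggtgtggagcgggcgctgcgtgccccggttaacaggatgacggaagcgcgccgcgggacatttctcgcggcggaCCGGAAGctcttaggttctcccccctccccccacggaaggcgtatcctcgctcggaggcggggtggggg
Psmb5, chr14:54617996-54618245: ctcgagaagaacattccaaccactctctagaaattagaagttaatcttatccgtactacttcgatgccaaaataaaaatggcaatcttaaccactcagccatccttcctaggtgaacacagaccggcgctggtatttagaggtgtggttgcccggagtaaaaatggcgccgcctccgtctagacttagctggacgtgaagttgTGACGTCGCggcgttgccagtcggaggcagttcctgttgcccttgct
Psmb9, chr17:34187331-34187580: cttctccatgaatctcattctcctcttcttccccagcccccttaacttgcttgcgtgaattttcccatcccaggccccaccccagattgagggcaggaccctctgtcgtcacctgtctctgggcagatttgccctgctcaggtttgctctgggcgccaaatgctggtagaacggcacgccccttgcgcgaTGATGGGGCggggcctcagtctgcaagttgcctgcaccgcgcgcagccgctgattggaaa
Psmg1 held 1 match to each marked motif, and Psmb5 and Psmb9 held 1 match to TGANNNNGC and 0 to CCGGAAG. The match in Psmb5 also fits the stricter TGACNNNGC, to which Psmg1 and Psmb9 held 0 matches. Over the family, 18 of 44 proteasome promoters (40.91%) held TGANNNNGC, against 36.59% of the promoters of tested genes and 35.2% of all 32851 promoters. The stricter TGACNNNGC was held by 5 of 44 (11.36%), against 11.73% and 10.16%. CCGGAAG was held by 14 of 44 (31.82%), against 12.85% and 6.907%, and by 22.22% of E2 and 17.95% of USP promoters. In all, 6 motifs were searched. The interferon-stimulated response element core was held by 3 of 44 (6.818%), against 2.612% and 2.977%, and by 0 of 3 immunoproteasome promoters. The CCAAT box was held by 16 of 44 (36.36%), against 34.9% and 33.85%. The cell cycle homology element was held by 3 of 44 (6.818%), against 10.76% and 15.99%. The differences between these shares were not tested. Psmb9 starts 226 bases from Tap1, the peptide transporter subunit, which is read the other way. Tap1 gave 1965 and 2849 on the leukemic arrays against 2999 and 1433 on the mature ones, with overlap, so the divergent neighbours had values of -0.85 and 0.19 (adjusted p = 0.73 for Tap1), and that of Tap1 turned to -0.13 with every array at the same median. A match describes the letters in these windows and is no evidence that a factor bound there.

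The 19S cap held the larger share of the proteasome calls, with 9 of 17 genes higher (52.9%, against 27.5% of all genes) and 0 lower (against 15.9%). Its median log2 fold change was 0.86. The base of the cap carries 6 ATPases that unfold the substrate, and all 6 had both leukemic arrays above both mature arrays, as in 45.9% of all tested genes. Psmc4 gave 6769 and 7215 on the leukemic arrays against 2074 and 4417 on the mature ones, with the mature arrays far apart, and rose by 1.20 (SE 0.36, adjusted p = 0.034). Its second probe set gave 0.57. Psmc1 rose by 0.93 (SE 0.22, adjusted p = 0.014) and Psmc5 by 0.90 (SE 0.25, adjusted p = 0.025). Psmc2, Psmc3 and Psmc6 lay at 0.49 to 0.64 without passing. None of the 3 ATPase calls was kept without leukemic replicate 2, where the adjusted p was 0.14 for Psmc4, 0.15 for Psmc1 and 0.17 for Psmc5.

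Among the 11 non-ATPase subunits 6 rose (54.5%, against 27.5% of all genes) and 0 fell (against 15.9%). Psmd7, the Rpn8 subunit that pairs with the deubiquitinase Psmd14 in the lid, gave 2343 and 2445 on the leukemic arrays against 354 and 347 on the mature ones. The leukemic arrays lay far above the mature arrays and each pair was close. Its log2 fold change of 2.72 (SE 0.23, adjusted p = 4.6e-04) was the largest among the 48 tested proteasome genes, and the call was kept under all 15 alternatives. Psmd14, the partner that takes ubiquitin chains off the substrate, gave 9529 and 9369 on the leukemic arrays against 7709 and 7328 on the mature ones, also without overlap, and a change of 0.33 (SE 0.22, adjusted p = 0.28). The lid subunit Psmd3 gave 2243 and 2659 on the leukemic arrays against 1119 and 897 on the mature ones and rose by 1.27 (SE 0.24, adjusted p = 0.0061). Psmd1, a large scaffold of the base, gave 3893 and 4350.3 on the leukemic arrays against 2089 and 2023 on the mature ones and rose by 1.00 (SE 0.22, adjusted p = 0.01). Psmd6, Psmd12 and Psmd2 completed the risen subunits, at 0.99, 0.86 and 0.97 (adjusted p = 0.018, 0.02 and 0.041). The second probe set of Psmd6 gave 0.41 and was not called (adjusted p = 0.22). Leaving out leukemic replicate 2 gave an adjusted p of 0.076 for Psmd3, 0.11 for Psmd1, 0.11 for Psmd6, 0.14 for Psmd12 and 0.17 for Psmd2.

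The remaining cap subunits, Psmd4, Psmd8, Psmd11, Psmd13 and Psmd14, gave -0.49 to 0.33. At the low end stood Psmd8, the Rpn12 subunit of the lid, with 3185 and 3441 on the leukemic arrays against 7245 and 2976 on the mature ones. Here too mature replicate 1 was far above the other 3 arrays, and the change was -0.49 (SE 0.41, adjusted p = 0.37). Psmd4, a receptor for ubiquitin chains, gave 3397 and 3045 on the leukemic arrays against 4470.1 and 2773 on the mature ones with overlap, a change of -0.13 (SE 0.29, adjusted p = 0.75). Without mature replicate 1, Psmd8 and Psmd4 turned to 0.15 and 0.21, and without mature replicate 2 Psmd8 was called lower at -1.13. Dimmer probe sets of Psmd11 and Psmd13 were called higher, at 1.09 and 1.47 (adjusted p = 0.040 and 0.047), so the range given holds for the brightest probe sets.

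The assembly factors had the highest median of the proteasome roles, 1.12, with 5 of 7 higher (71.4%, against 27.5% of all genes) and 0 lower (against 15.9%). Psmg1 and Psmg2 form a dimer that chaperones the alpha ring. Psmg2 gave 2016 and 2243 on the leukemic arrays against 445 and 236 on the mature ones, and Psmg1, whose promoter is printed above, gave 2731 and 2816 on the leukemic arrays against 817 and 704 on the mature ones. In both genes the groups lay far apart, with log2 fold changes of 2.65 (SE 0.33, adjusted p = 0.0015) for Psmg2 and 1.85 (SE 0.23, adjusted p = 0.0014) for Psmg1. Psmg3 and Psmg4 form a second chaperone dimer of the 20S core. Psmg3 gave 1669.8 and 1611 on the leukemic arrays against 884 and 631 on the mature ones and rose by 1.12 (SE 0.26, adjusted p = 0.013), whereas Psmg4 gave 859 and 1132 on the leukemic arrays against 818 and 458 on the mature ones and did not pass, at 0.67 (SE 0.34, adjusted p = 0.15). Psmd5 and Psmd9, which escort the ATPases into the base, rose by 1.26 (SE 0.30, adjusted p = 0.014) and 1.09 (SE 0.29, adjusted p = 0.022). Psmd10, the chaperone also known as gankyrin, did not pass at 0.05 (adjusted p = 0.89). The calls of Psmg1 and Psmg2 were kept with any 1 array left out (highest adjusted p = 0.019 and 0.016), and without leukemic replicate 2 those of Psmg3 (0.095), Psmd5 (0.12) and Psmd9 (0.21) were lost.

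The activators open the 20S core without ubiquitin, and Psmf1 was described as an inhibitor of it. Psmf1 gave 1106 and 1583 on the leukemic arrays against 592 and 478 on the mature ones and rose by 1.29 (SE 0.28, adjusted p = 0.01), a call lost without leukemic replicate 2 (adjusted p = 0.13). Psme1, a subunit of the interferon-inducible PA28 cap, gave 4549 and 4111 on the leukemic arrays against 6748 and 4216 on the mature ones, a change of -0.30 (SE 0.28, adjusted p = 0.43). Its partner Psme2 had no probe set of its own. A probe set shared with Psme2b read 4375 and 4259 on the leukemic arrays against 8673 and 5333 on the mature ones, at -0.65 (adjusted p = 0.13). In both, mature replicate 1 was the highest array, as in Psmb8, Psmb9 and Psmb10. Psme3, the nuclear PA28 form, gave 0.29 (SE 0.26, adjusted p = 0.4) at its brightest probe set and was called higher at the other (1.09, adjusted p = 0.048), and Psme4, which encodes PA200, gave -0.14 (SE 0.26, adjusted p = 0.69). The signs of Psme1, Psme3 and Psme4 each turned under at least 1 alternative setting. Of the 2 genes that share only the Psm letters, Psmc3ip, a cofactor of meiotic recombination, rose by 1.64 (SE 0.32, adjusted p = 0.0069), or 0.07 as the adjusted p without leukemic replicate 2, and Psme3ip1 gave 0.35.

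**Figure D3:**
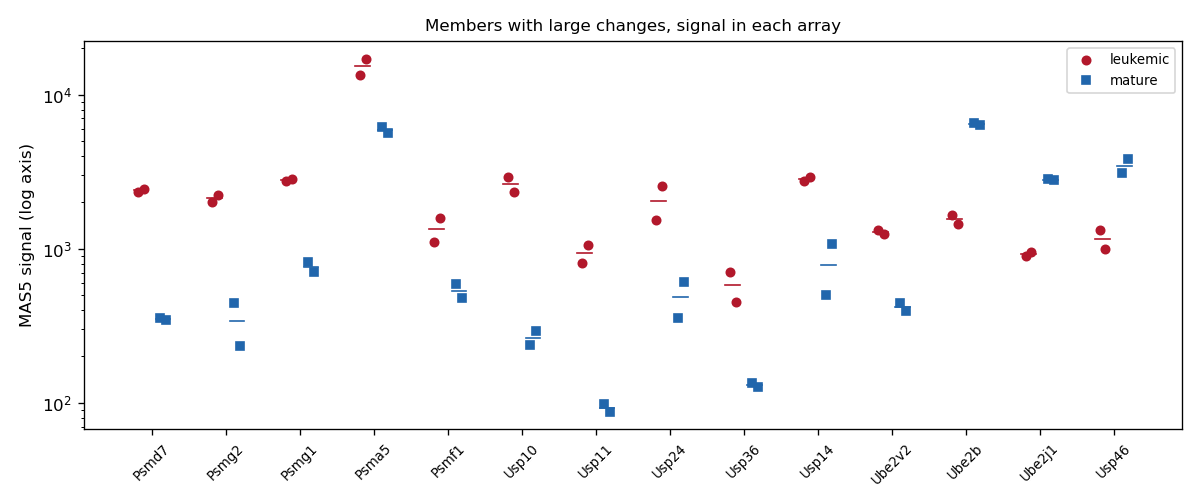
MAS5 signal (log axis) in each of the 4 arrays of proteasome, USP and E2 genes with leading changes, with a point per array and a short line at each group mean. Psmd7 (2343 and 2445 against 354 and 347) and Usp10 (2938 and 2348 against 238 and 291) stand high in both leukemic arrays, and Ube2b (1664 and 1453 against 6571 and 6348) stands high in both mature arrays.

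The E2 genes moved in both directions, with 6 of 30 higher (20%, against 27.5% of all genes) and 3 lower (10%, against 15.9%). The 6 include Ube2cbp, which is no E2. Ube2cbp and Ube2ql1 passed the filter on dim signals through the leukemic arrays alone. Ube2b, which encodes the RAD6B enzyme that works with RAD18 at damaged DNA and on histone H2B, gave 1664 and 1453 on the leukemic arrays against 6571 and 6348 on the mature ones. Both mature arrays lay far above both leukemic arrays, and it fell, with a log2 fold change of -2.04 (SE 0.22, adjusted p = 8.8e-04). Of its 4 probe sets 3 were called lower and the other gave -0.22. Ube2a, the close homologue of Ube2b, gave 3497 and 3937 on the leukemic arrays against 6322 and 4424 on the mature ones, also without overlap, but did not pass at -0.51 (SE 0.26, adjusted p = 0.16). Ube2j1, an E2 anchored in the endoplasmic reticulum that takes part in the degradation of misfolded proteins there, gave 903 and 954 on the leukemic arrays against 2815 and 2774 on the mature ones and fell, at -1.57 (SE 0.22, adjusted p = 0.002). Its other probe set gave -0.20, so the probe sets differed in size. Both calls were kept under all 15 alternatives. Ube2q1 also fell, at -0.89 (SE 0.23, adjusted p = 0.02), and that call was lost without leukemic replicate 2 (adjusted p = 0.15).

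Higher in leukemic marrow was Ube2v2, the MMS2 variant that lacks a catalytic cysteine and forms K63-linked chains with Ube2n. It gave 1316 and 1254 on the leukemic arrays against 443 and 394 on the mature ones, without overlap, and rose by 1.58 (SE 0.24, adjusted p = 0.0028), while Ube2n, its partner, gave 1492 and 1549 on the leukemic arrays against 1322 and 1774 on the mature ones and -0.01 (SE 0.25, adjusted p = 0.98), with 0.70 at its other probe set. Ube2e1 and Ube2e3, E2 enzymes of the UBE2E class, rose by 1.12 (SE 0.25, adjusted p = 0.011) and 0.78 (SE 0.22, adjusted p = 0.024). Their other probe sets gave 0.58 and 0.79 and were not called. Ube2q2 rose by 1.15 (SE 0.33, adjusted p = 0.028). Ube2ql1 gave 129.6 and 121 on the leukemic arrays against 2.50 and 16.6 on the mature ones, near the floor in the mature arrays, and rose by 2.52 (SE 0.57, adjusted p = 0.012). Ube2cbp, which is no E2 but binds E2 enzymes and acts as a ligase, rose as well, with 292 and 251 on the leukemic arrays against 12.6 and 7.92 on the mature ones and 3.45 (SE 0.46, adjusted p = 0.0017). Both mature arrays of Ube2cbp and Ube2ql1 lay under the filter for dim signals, so the sizes were set by the pseudocount. The 2 genes entered the test through the leukemic arrays alone, so a call kept under other settings is no independent support for them. With pseudocounts of 1 and 64 they were 4.63 and 2.17 for Ube2cbp and 4.00 and 1.37 for Ube2ql1. The calls of Ube2v2 and Ube2cbp were kept with any 1 array left out (highest adjusted p = 0.037 and 0.019). Without leukemic replicate 2 it was 0.089 for Ube2e1, 0.16 for Ube2e3, 0.25 for Ube2q2 and 0.071 for Ube2ql1.

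The E2 enzymes of the cell cycle ligase APC/C did not pass. Ube2c, which starts chains on its targets, gave 3123 and 3216 on the leukemic arrays against 6199 and 2475 on the mature ones, and Ube2s, which extends them, gave 996 and 978 on the leukemic arrays against 1697 and 908 on the mature ones. In both, mature replicate 1 was far above the other 3 arrays, and the changes were -0.30 (SE 0.41, adjusted p = 0.59) and -0.33 (SE 0.33, adjusted p = 0.46), turning to 0.35 and 0.12 without that array. Of 24 tested proliferation genes 8 were called higher (33.3%, against 27.5% of all genes) and 0 lower (against 15.9%). The largest rises were Mcm2 at 1.99 (SE 0.26, adjusted p = 0.0017) and Mcm3 at 1.59 (SE 0.24, adjusted p = 0.0026), which encode parts of the replicative helicase. The 16 that did not pass include Cdc20 (0.17), Plk1 (0.07), Aurka (0.24), Aurkb (0.24) and Bub1 (-0.12), while Bub1b rose by 0.98. Ube2d3, a widely used E2 with 7 probe sets, gave 15138 and 12464 on the leukemic arrays against 22497 and 21632 on the mature ones without overlap and -0.68 (SE 0.25, adjusted p = 0.064), and Ube2h, an E2 linked to red cell maturation, gave 1458 and 2241 on the leukemic arrays against 2850.5 and 3183 on the mature ones and -0.73 (SE 0.27, adjusted p = 0.069). At other probe sets, 3 of the 7 of Ube2d3 (-1.48 to -0.88) and 1 of the 4 of Ube2h (-1.06) were called lower. Averaged probe sets gave -0.83 for Ube2d3, also called, and with every array at the same median both genes were called lower, at -1.0 and -1.05. Ube2l6, the interferon-inducible E2 of ISG15, gave 169.9 and 422 on the leukemic arrays against 249 and 312 on the mature ones and -0.05 (SE 0.45, adjusted p = 0.95), with overlap. The other tested E2 genes, Ube2d-ps, Ube2d1, Ube2d2a, Ube2f, Ube2g1, Ube2g2, Ube2j2, Ube2k, Ube2o, Ube2r2, Ube2t, Ube2v1, Ube2w and Ube2z, ran from -0.70 to 0.76. For Ube2l3, 4 probe sets shared with other gene names gave -0.55 to 0.12 and none was called.

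**Figure D4:**
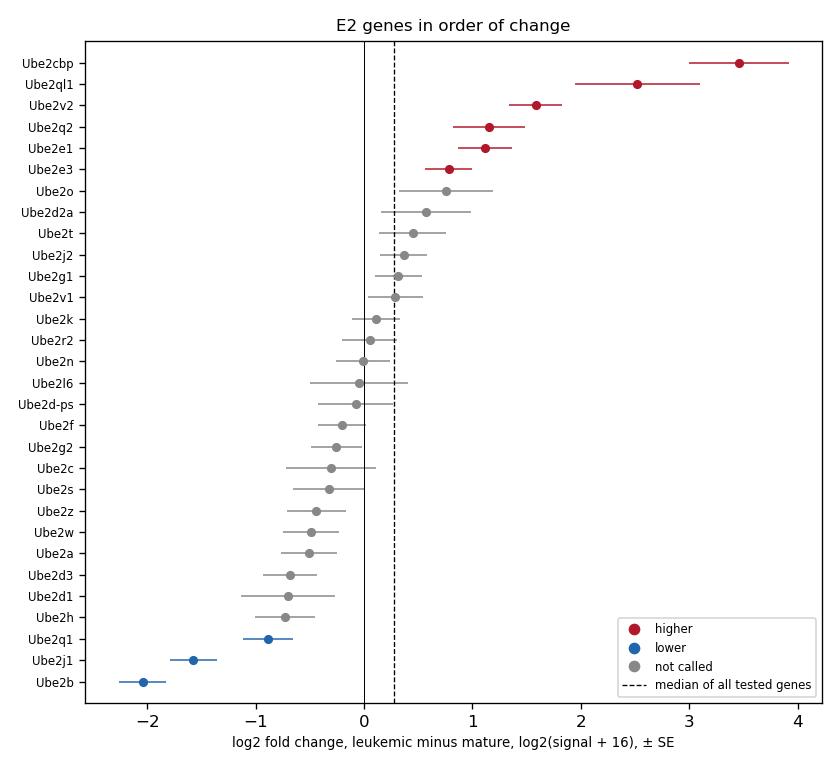
Log2 fold change, leukemic minus mature, of the 30 tested E2 genes in order, with the SE as a horizontal bar and the call by colour. The list runs from Ube2cbp (3.45, a size set by the pseudocount) to Ube2b (-2.04), and most genes between lie within 1 of 0 and did not pass.

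Usp10 had the largest change among the 42 tested USP genes. It encodes a deubiquitinase known to act on p53 and to bind the stress granule protein G3BP, and gave 2938 and 2348 on the leukemic arrays against 238 and 291 on the mature ones. The groups lay far apart, and it rose by 3.24 (SE 0.26, adjusted p = 3.9e-04). Usp11, a deubiquitinase linked to homologous recombination, gave 802 and 1063 on the leukemic arrays against 98.2 and 87.5 on the mature ones and rose by 3.11 (SE 0.31, adjusted p = 7.1e-04). Both calls were kept under all 15 alternatives and stayed higher with scaling to the hybridization controls, at 1.95 and 1.88. Usp24, a large deubiquitinase, gave 1527 and 2549 on the leukemic arrays against 356 and 611 on the mature ones, without overlap, and rose by 2.04 (SE 0.36, adjusted p = 0.0046). Of its 4 probe sets 3 were called higher, and the other gave 0.36. Usp36, which sits in the nucleolus, gave 704 and 454 on the leukemic arrays against 135 and 127 on the mature ones and rose by 1.99 (SE 0.34, adjusted p = 0.0039). For Usp36, 2 of 3 probe sets were called higher, and the other gave 0.08.

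Usp14, which docks on the 19S cap and trims chains there, gave 2751 and 2930.0 on the leukemic arrays against 498 and 1081 on the mature ones and rose by 1.93 (SE 0.37, adjusted p = 0.006), and 3 of its 4 probe sets were called higher. Usp5, which takes apart free ubiquitin chains, gave 807 and 876 on the leukemic arrays against 1180.0 and 1324 on the mature ones and -0.56 (SE 0.23, adjusted p = 0.094), with both mature arrays above both leukemic arrays. Usp40, Usp20 and Usp48 rose by 1.38 (SE 0.33, adjusted p = 0.014), 1.36 (SE 0.34, adjusted p = 0.018) and 0.86 (SE 0.23, adjusted p = 0.021). For Usp40, 2 of 4 probe sets were called higher, and the lowest gave 0.40. Usp6nl, which is no protease but a GTPase-activating protein of Rab proteins, gave 928 and 1091 on the leukemic arrays against 153 and 195 on the mature ones and rose by 2.44 (SE 0.29, adjusted p = 0.0012). The highest adjusted p with 1 array left out was 0.042 for Usp14 and 0.047 for Usp24. It was 0.052 for Usp36 (without leukemic replicate 1), and 0.13, 0.17 and 0.17 for Usp40, Usp20 and Usp48 (without leukemic replicate 2).

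Among the USP genes that fell, Usp46, which is activated by the WD repeat protein Wdr48, gave 1331 and 996 on the leukemic arrays against 3104 and 3804 on the mature ones. The mature arrays were both well above the leukemic arrays, and the log2 fold change was -1.56 (SE 0.26, adjusted p = 0.0033), a call kept under all 15 alternatives. Its other probe set gave -0.91 and did not pass. Usp12, its close homologue and also bound to Wdr48, gave 623 and 565 on the leukemic arrays against 952 and 749 on the mature ones in the same order, at -0.50 (SE 0.26, adjusted p = 0.17). Usp53, a member associated with tight junctions, gave 88.8 and 66.2 on the leukemic arrays against 164 and 303 on the mature ones and fell, at -1.37 (SE 0.44, adjusted p = 0.042). Usp3, which takes ubiquitin off histone H2A, gave 1558 and 1629.6 on the leukemic arrays against 5000.3 and 2339 on the mature ones, with the mature arrays far apart, and fell, at -1.09 (SE 0.36, adjusted p = 0.047). The 4 probe sets of Usp3 past the filter ran from -1.09 to -0.42, and 0 of them were called when each probe set was tested on its own. The adjusted p of Usp53 without leukemic replicate 2 was 0.21, and without leukemic replicate 1 that of Usp3 was 0.16.

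Most USP genes with known roles in chromatin and signalling did not pass, and neither did 7003 of all 12378 tested genes. Usp1, which deubiquitinates FANCD2 and PCNA with Wdr48, gave 8865 and 9255 on the leukemic arrays against 5655 and 6598 on the mature ones without overlap and 0.57 (SE 0.23, adjusted p = 0.085). Usp7, which stabilises MDM2 and p53, gave 6774 and 7063 on the leukemic arrays against 5421 and 4721 on the mature ones and 0.45 (SE 0.22, adjusted p = 0.15), and its 7 probe sets ran from -0.13 to 1.03. Usp22, of the SAGA complex, gave 1984 and 1689.8 on the leukemic arrays against 2559 and 2285 on the mature ones and -0.40 (SE 0.23, adjusted p = 0.2). Usp32 was just outside the threshold at -0.86 (SE 0.29), and it was called lower, at -1.18, once all arrays shared 1 median. Another probe set of Usp32 was called lower at -2.39 (adjusted p = 0.0016), and averaged probe sets gave -1.38, also called. The other tested genes, Usp2, Usp4, Usp8, Usp9x, Usp15, Usp16, Usp19, Usp21, Usp25, Usp27x, Usp28, Usp29, Usp30, Usp31, Usp33, Usp34, Usp37, Usp38, Usp39, Usp42, Usp45, Usp47, Usp49 and Usp54, gave -0.59 to 0.99, and among their dimmer probe sets 1 each of Usp9x, Usp34 and Usp45 was called higher, at 1.15, 1.34 and 1.19. Across the 3 families, 11 genes were too dim to test, with mean signals of 3.71 to 45.8: Psmb11, Ube2d2b, Ube2e2, Ube2u, Usp13, Usp17la, Usp26, Usp43, Usp44, Usp46os2 and Usp50.

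**Figure D5:**
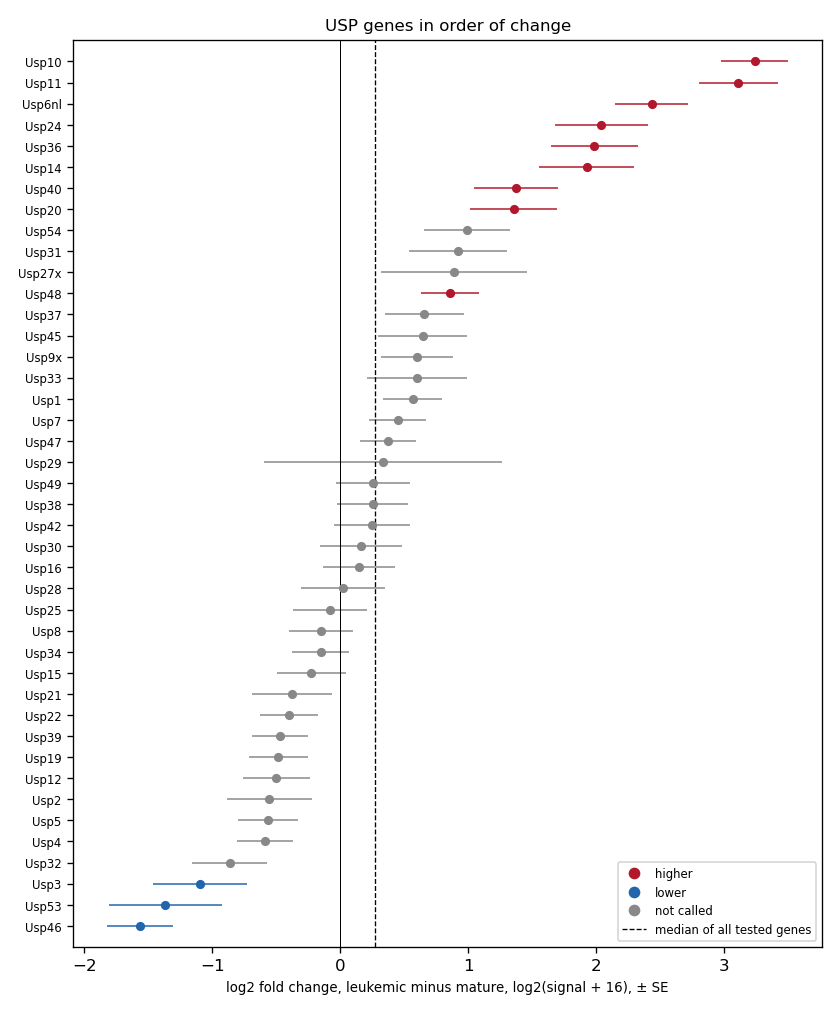
Log2 fold change, leukemic minus mature, of the 42 tested USP genes in order, with the SE as a horizontal bar and the call by colour. Usp10 (3.24) and Usp11 (3.11) stand at the top, Usp46 (-1.56) at the bottom, and 30 of the 42 did not pass, against 7003 of all 12378 tested genes.

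The other enzymes of the pathway, from lists that do not overlap with the 131 genes, had 28% to 33.3% of their tested genes called, against 43.4% of all genes. Of the E1 enzymes, which start the cascade, 2 of 6 rose and 0 fell, Sae1 of the SUMO pathway by 1.22 (SE 0.24, adjusted p = 0.0071) and Uba6 by 0.94 (SE 0.23, adjusted p = 0.017). Of the other deubiquitinase classes, 5 of 25 rose and 2 fell. Otub2 gave 834 and 890.5 on the leukemic arrays against 54.5 and 45.5 on the mature ones and rose by 3.74 (SE 0.32, adjusted p = 4.6e-04), and Otud4 rose by 1.80 (SE 0.32, adjusted p = 0.0044). Stambpl1, a JAMM protease of endosomes, fell at -1.85 (SE 0.46, adjusted p = 0.016) and Otud3 at -1.23 (SE 0.32, adjusted p = 0.02). When leukemic replicate 2 was left out, the adjusted p was 0.058 for Sae1, 0.14 for Uba6, 0.11 for Stambpl1 and 0.16 for Otud3.

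Among the genes of proteasome assembly and regulation, 2 of 13 rose (15.4%, against 27.5% of all genes) and 2 fell (15.4%, against 15.9%). Txnl1, a thioredoxin bound to the 19S cap, gave 10352 and 11136 on the leukemic arrays against 5328 and 4493 on the mature ones and rose by 1.13 (SE 0.23, adjusted p = 0.0078), and the shuttle receptor Rad23b rose by 0.74 (SE 0.24, adjusted p = 0.042). Nfe2l2, a transcription factor of proteasome genes in the response to oxidants, gave 5233 and 5461 on the leukemic arrays against 9699.6 and 10389 on the mature ones and fell, at -0.91 (SE 0.22, adjusted p = 0.016). Ublcp1, a phosphatase of the 26S proteasome, fell at -0.81 (SE 0.23, adjusted p = 0.026). Nfe2l1, the factor known to raise proteasome genes when the proteasome is inhibited, gave 499 and 433 on the leukemic arrays against 444 and 490.4 on the mature ones, with overlap (adjusted p = 0.99). Once leukemic replicate 2 was removed, the adjusted p stood at 0.065 for Txnl1 and 0.31 for Rad23b, and without leukemic replicate 1 it was 0.095 for Nfe2l2 and 0.2 for Ublcp1.

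Genes that load peptides on MHC class I take up the products of the proteasome. Of 10 tested, 2 rose (20%, against 27.5% of all genes) and 1 fell (10%, against 15.9%). The chaperones Calr and Canx rose by 1.67 (SE 0.22, adjusted p = 0.0016) and 0.92 (SE 0.27, adjusted p = 0.029), and Tapbp, which bridges the transporter and class I molecules, gave 3731 and 3606 on the leukemic arrays against 9896 and 6816 on the mature ones and fell, at -1.16 (SE 0.26, adjusted p = 0.011). Among the interferon response genes the median was -0.70, and of 16 tested 6 fell (37.5%, against 15.9% of all genes) and 0 rose (against 27.5%). Ifit3 fell at -2.04 (SE 0.39, adjusted p = 0.0062) and Mx1 at -2.02 (SE 0.46, adjusted p = 0.012). Their summed signals were 12079 and 15048 on the leukemic arrays against 39002 and 24691 on the mature ones. With leukemic replicate 2 left out, the adjusted p came to 0.12 for Canx, 0.072 for Tapbp and 0.056 for Mx1. The ubiquitin genes themselves had no probe set naming 1 gene and were not analysed here.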

How the data were processed

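Total RNA of 2 leukemic and 2 mature samples was hybridised to single-colour arrays. What the authors deposited is the MAS5 signal of each probe set, a linear intensity; the submitters' processing notes name GCOS 1.3.0, and its settings are not given in the labels. The mean after trimming was 500.003 to 500.004 on every array. Gene symbols came from the platform annotation: of 45101 probe sets, 34945 had 1 symbol, 932 several and 9160 none, 64 were controls, and 34741 gene IDs were found in RefSeq (GRCm38.p6). Scaling each array to 1 mean lets a change in bright genes shift the signals of all others.

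The lowest 40% of probe sets by mean signal (under 47.6) were left out, each gene was read from its brightest probe set, and log2(signal + 16) was fitted for 12378 genes in R 4.3.3 by limma 3.58.1 (two-sided moderated test, variance trend on, 6.90 degrees of freedom). P-values were adjusted by Benjamini-Hochberg over all tested genes, with a threshold of 0.05. SEs had a median of 0.33, and having 4 arrays limits precision. Exact permutation tests were run in scipy 1.17.1.

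The genes and lists were chosen with earlier results of these data known. Values are given for the catalytic and immune subunits, activators and chaperones, for up to 3 called genes of each role in its commoner direction and 2 against it, for the 5 largest E2 and USP changes each way, and for up to 2 genes each way in other lists. All further called members, and Ube2c, Ube2s, Ube2d3, Ube2h, Ube2l6, Usp1, Usp7, Usp32, Psmd4, Psmd8, Psmd10, Psmd11, Psmd13, Psmd14, Psmb4, Psme3ip1, Ube2a, Ube2n, Usp5, Usp12, Usp22, Tap1 and Nfe2l1, were added after their values were seen. Alternatives were pseudocounts of 1 and 64, no filter or 60% left out, other scalings, averaged probe sets, unique probe sets, no variance trend, a replicate block and each array left out, with the lone array assumed to vary like the other group. Each further probe set of a member was tested after the data had been seen, in a separate limma fit over all 27022 kept probe sets with its own adjustment. In that fit the brightest probe sets of Psma3, Psmd2 and Usp3 were not called (adjusted p = 0.065, 0.052 and 0.057). The replicate numbers do not pair the arrays (correlation of the deviations of replicate 1 of each group -0.03 across genes).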

Additional observations from a re-analysis of the deposited data

How the results depend on the processing

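With 2 arrays a group, most calls depended on at least 1 setting, and 9 of the 131 genes (Psmd7, Psmg2, Ube2b, Ube2cbp, whose size moved with the pseudocount, Ube2j1, Usp10, Usp11, Usp46 and Usp6nl) kept call and direction under every setting run for them, other probe sets apart. Ube2cbp passed the filter on dim signals through the leukemic arrays alone, so its kept call is no independent support. The array has no measure of total RNA per cell, so absolute directions cannot be settled. The setting without probe sets that can match several transcripts gave no value for the immune minus standard subunits, since not all 6 kept a probe set.

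With the replicate number as a block, 45 members were called, including all 42, and 1 proteasome gene (Psmb9, adjusted p = 0.026) was then called lower; the numbers do not pair the arrays. Without a filter 1 USP gene was called lower, and when the probe sets of a gene were averaged 5 E2 genes were lower and Psmb8 and Ube2n turned to 0.10 and 0.34. With quantile normalization Psmd10 gave -0.11. Single other probe sets turned Psmb8 (0.68), Psme4 (0.22), Ube2n (0.70) and Usp7 (-0.13 and -0.070), and without probe sets that can match several transcripts Usp7 gave -0.070.

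With every array at the same median, 5 proteasome genes were called, 5 higher, and 3 E2 genes were higher and 5 lower; 49.4% of all changed genes were then higher, against 63.3% as deposited. Psmb5 (-0.14), Psmb7 (-0.23), Psmd10 (-0.27), Psmd11 (-0.16), Psmd13 (-0.099), Psme3 (-0.026) and Tap1 (-0.13) turned. With the hybridization controls, 14.4% of changed genes were higher. Then 2 proteasome genes were called higher and 23 lower, of 22 called E2 genes 1 higher and 21 lower, and of 29 called USP genes 3 higher and 26 lower. The genes that turned were Psma3 (-0.63), Psma4 (-0.51), Psmb2 (-0.58), Psmb4 (-0.84), Psmb5 (-1.15), Psmb6 (-0.77), Psmb7 (-1.24), Psmc1 (-0.39), Psmc4 (-0.12), Psmc5 (-0.42), Psmd1 (-0.33), Psmd2 (-0.36), Psmd3 (-0.046), Psmd5 (-0.060), Psmd6 (-0.34), Psmd9 (-0.22), Psmd10 (-1.26), Psmd11 (-1.17), Psmd12 (-0.47), Psmd13 (-1.10), Psmd14 (-1.0), Psme3 (-1.02), Psme3ip1 (-0.96), Psmf1 (-0.015), Psmg3 (-0.19), Psmg4 (-0.63), Ube2e1 (-0.21), Ube2e3 (-0.55), Ube2q2 (-0.088), Usp1 (-0.76), Usp7 (-0.88), Usp48 (-0.47), Canx (-0.41), Rad23b (-0.58), Sae1 (-0.10), Tap1 (-1.13), Txnl1 (-0.20) and Uba6 (-0.38). In both scalings the shift of all genes is part of the setting.

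With 1 array left out, 2575 to 5441 genes changed over the array. Proteasome calls ran from 4 to 24 (4 to 24 higher, 0 to 4 lower), E2 calls from 4 to 12 (2 to 6 higher, 2 to 6 lower) and USP calls from 6 to 15 (5 to 13 higher, 1 to 3 lower). All 19 members called without leukemic replicate 1, and all 15 without leukemic replicate 2, were also called the same way with all arrays. The immune minus standard value ran from -1.28 to -0.45. Genes that turned with an array left out ranged from -0.37 to 0.079 (Psme4), -0.66 to 0.57 (Ube2l6), -0.10 to 0.094 (Nfe2l1), -0.047 to 0.22 (Psmb7), -0.34 to 0.72 (Tap1), -1.10 to 0.26 (Psmb10), -1.15 to 0.17 (Psmb8), -0.64 to 0.036 (Psme1), -0.96 to 0.35 (Ube2c), -0.77 to 0.12 (Ube2s), -1.13 to 0.15 (Psmd8), -0.47 to 0.21 (Psmd4), -0.026 to 0.12 (Psmd10), -0.11 to 0.43 (Psmd11), -0.065 to 0.50 (Psmd13), -0.22 to 0.20 (Ube2n) and -0.070 to 0.43 (Psmb5). Over the 92 genes tested and followed through the settings (the 42 called members, the other members given with fold changes and the genes named from other lists), the call was lost for 38 without leukemic replicate 2, 31 without leukemic replicate 1, 26 with every array at the same median, 15 without a variance trend, 8 without a filter and 2 to 7 under pseudocount 1, quantile normalization, unique or averaged probe sets and either mature array left out, all with the same direction. With scaling to the hybridization controls, 13 of the 92 lost the call with the same direction, apart from the 38 genes that turned. The cause was not tested for any of these.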
